A study of Homo sapiens with 6 samples.

Results

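The insulin-like growth factor (IGF) axis was examined as 10 genes of the deposited expression table, matched by gene symbol: the ligands IGF1 and IGF2, the receptors IGF1R and IGF2R, and the binding proteins IGFBP2, IGFBP3, IGFBP4, IGFBP5, IGFBP6 and IGFBP7. All 10 were among the 26364 symbols listed. In this axis, IGF1 and IGF2 are secreted growth factors that activate the receptor tyrosine kinase encoded by IGF1R, which signals through insulin receptor substrates to the PI3K and AKT pathway and favors growth and survival. IGF2R carries no kinase and removes IGF2 from the cell surface, and the binding proteins hold the ligands in the extracellular space and can either limit or prolong their action. Ewing sarcoma cells are known for their dependence on IGF1R signaling.

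RNAseq was performed on A673/TR/shEF cells, a derivative of the Ewing sarcoma cell line A673 that carries a tetracycline repressor and a doxycycline-inducible shRNA against the EWSR1::FLI1 mRNA. Both groups were made of these engineered cells. The EWSR1::FLI1 high group comprised 3 untreated libraries, and the EWSR1::FLI1 low group comprised 3 libraries of cells given 1 µg/mL doxycycline for 72 h; these are called untreated and doxycycline libraries below. Cells that received doxycycline without the shRNA were not analysed here, so that doxycycline itself and the knockdown cannot be told apart. The labels number the libraries of each group as experiments, whereas the description of the design calls them independent clones, and p-values therefore measure the spread between these libraries, whatever its source.

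FLI1, the 3′ partner of the fusion, was at 11.3, 12.7 and 14.2 FPKM in untreated replicates 1, 2 and 3 and at 2.91, 4.29 and 3.68 FPKM in doxycycline replicates 1, 2 and 3. FLI1 thus fell by 1.57 ± 0.18 (SE) on the log2(FPKM + 1) scale (adjusted p = 0.000676, limma), and EWSR1, the 5′ partner, was at 91.5 ± 13.9 and 65.1 ± 16.0 FPKM (SD, n = 3; adjusted p = 0.159, limma). Of 8 Ewing sarcoma markers, all of them expressed in the EWSR1::FLI1 high group, 7 were lower with an adjusted p under 0.01. Of all tested genes, 3.37% were lower at this limit. The marker lists were chosen with earlier results of these data known, so this count is not an independent check. Between 6980361 and 16658933 reads per library lay on genes. doxycycline replicate 1 had the fewest reads and stood apart from the other libraries: its lower quartile of FPKM over all symbols was 0.372, against 0.143 to 0.232 elsewhere. The chi-square per degree of freedom between libraries of a group was 20.2 to 31.5 in the EWSR1::FLI1 low group and 4.25 to 6.27 in the EWSR1::FLI1 high group. Results that rest on replicate 1 are therefore also given without it. Of 12 blood, endothelial and epithelial markers none was higher or lower at this limit (4 could be tested, and 1 of them, PECAM1, was higher at an unadjusted p under 0.05 and also called by limma-voom). None of the 12 was listed at 0. Their summed FPKM was 1.04 to 1.86 (blood), 0.614 to 0.806 (endothelial) and 2.95 to 3.97 (epithelial) in the EWSR1::FLI1 high group, and 1.41 to 3.36, 1.12 to 2.17 and 3.52 to 4.76 in the EWSR1::FLI1 low group. Of 6 fibroblast markers, PDGFRA, PDGFRB and COL1A1 were higher in the EWSR1::FLI1 low group, DCN, LUM and THY1 were not called (log2 fold changes of -0.31, 0.18 and -0.10), and the summed FPKM of the 6 moved from 55.2 to 78.6 up to 93.7 to 119. No fibroblast marker was listed at 0 in any library, and the part of these markers in the results below was not tested.

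The start regions of IGFBP3 and IGFBP5, the genes of the axis with the largest changes for which RefSeq gives a promoter in the table used here, are shown beside that of IGF1, the only member with a negative fold change. Each runs from 250 bases before to 50 bases after a RefSeq transcript start, read 5′ to 3′ along the gene, and was placed on GRCh37 by an exact and single match to its chromosome. The capitals mark the core of the ETS recognition sequence, GGAA or its reverse complement TTCC, since FLI1 is an ETS factor. The IGFBP3 window lies at chr7:45960822-45961121 on the minus strand, the IGFBP5 window at chr2:217560223-217560522 on the minus strand, and the upstream window of IGF1 at chr12:102875476-102875775 on the minus strand.
IGFBP3: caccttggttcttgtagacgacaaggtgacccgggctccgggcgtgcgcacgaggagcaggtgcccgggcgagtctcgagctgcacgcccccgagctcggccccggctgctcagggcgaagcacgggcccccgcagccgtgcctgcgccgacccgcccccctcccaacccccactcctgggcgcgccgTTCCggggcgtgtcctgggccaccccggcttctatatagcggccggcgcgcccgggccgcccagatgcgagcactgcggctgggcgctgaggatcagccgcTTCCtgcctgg
IGFBP5: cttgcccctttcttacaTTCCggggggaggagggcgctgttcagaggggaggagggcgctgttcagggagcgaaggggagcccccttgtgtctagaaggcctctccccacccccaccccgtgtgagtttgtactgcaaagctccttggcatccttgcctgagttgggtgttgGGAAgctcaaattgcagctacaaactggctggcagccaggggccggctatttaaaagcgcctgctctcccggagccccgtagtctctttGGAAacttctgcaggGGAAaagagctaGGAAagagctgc
IGF1: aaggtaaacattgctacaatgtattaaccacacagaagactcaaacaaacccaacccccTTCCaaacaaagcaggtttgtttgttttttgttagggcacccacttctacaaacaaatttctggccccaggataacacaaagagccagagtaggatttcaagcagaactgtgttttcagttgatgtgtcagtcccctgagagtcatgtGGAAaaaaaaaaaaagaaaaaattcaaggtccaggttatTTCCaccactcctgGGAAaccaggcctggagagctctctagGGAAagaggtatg
The IGFBP3 window held 2 such cores, the IGFBP5 window 5, and the IGF1 window 5. Counting both strands, 95.5% of the 35116 promoter windows of this length held at least 1 core, 83.8% held 2 or more and 28.6% held 5 or more, so these counts were not unusual among promoters. Tandem copies of the core (GGAAGGAA on either strand) each also contain 2 cores and are an arrangement to which EWSR1::FLI1 is known to bind. They were found in 0 of the 11 windows of the 8 members that have an entry, and in 3.67% of all windows. At so low a share, 0 of 11 windows is not unusual and does not set the members apart. Sequence outside these windows was not searched, IGFBP7 had no window, and binding was not tested. Among the members, IGFBP6 had the most cores, with 8 in 300 bases, a number reached by 3.78% of windows. As this is the highest of 11 windows set against a share for single windows, it does not set IGFBP6 apart.

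The 3 members that passed the test were binding proteins. Of the 10 genes, 9 had a mean of at least 0.5 FPKM and were tested, and these 9 also reached that mean in the EWSR1::FLI1 high group alone. Genes were called at an adjusted p under 0.01 (limma on log2(FPKM + 1), Benjamini-Hochberg over 15504 genes). With doxycycline, IGFBP3, IGFBP5 and IGFBP7 were higher, and no member was called lower. Thus 3 of 9 were called higher, where 4.51% of all tested genes were, and 0 of 9 lower, where 3.37% were (7.88% in either direction). The 3 genes also exceeded a log2 fold change of 2.5, which 0.813% of tested genes did together with the adjusted p. At an unadjusted p under 0.05, 7 members were higher and 1, IGF1, was lower, where 15.6% and 18.7% of tested genes were. Limma-voom on recovered reads called 4 members higher and 0 lower, and 6.10% and 5.06% of tested genes. In 7 of 9 members all the doxycycline libraries exceeded all the untreated ones, compared with 17.5% of tested genes, and in 0 of 9 they were all below them, compared with 23.6%. The median log2 fold change was 1.08 over the 9 members and -0.05 over all tested genes. The members were chosen with earlier results of these data known, so these shares and medians are descriptions and do not measure an enrichment. Without doxycycline replicate 1, 6 members were called higher and 1, IGF1, lower, and the calls over all tested genes also became more frequent, at 9.37% and 4.68%. The count of higher members was 2 without untreated replicate 2, untreated replicate 3 or doxycycline replicate 3, where 287, 322 and 419 of all tested genes were called higher.

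**Figure D1:**
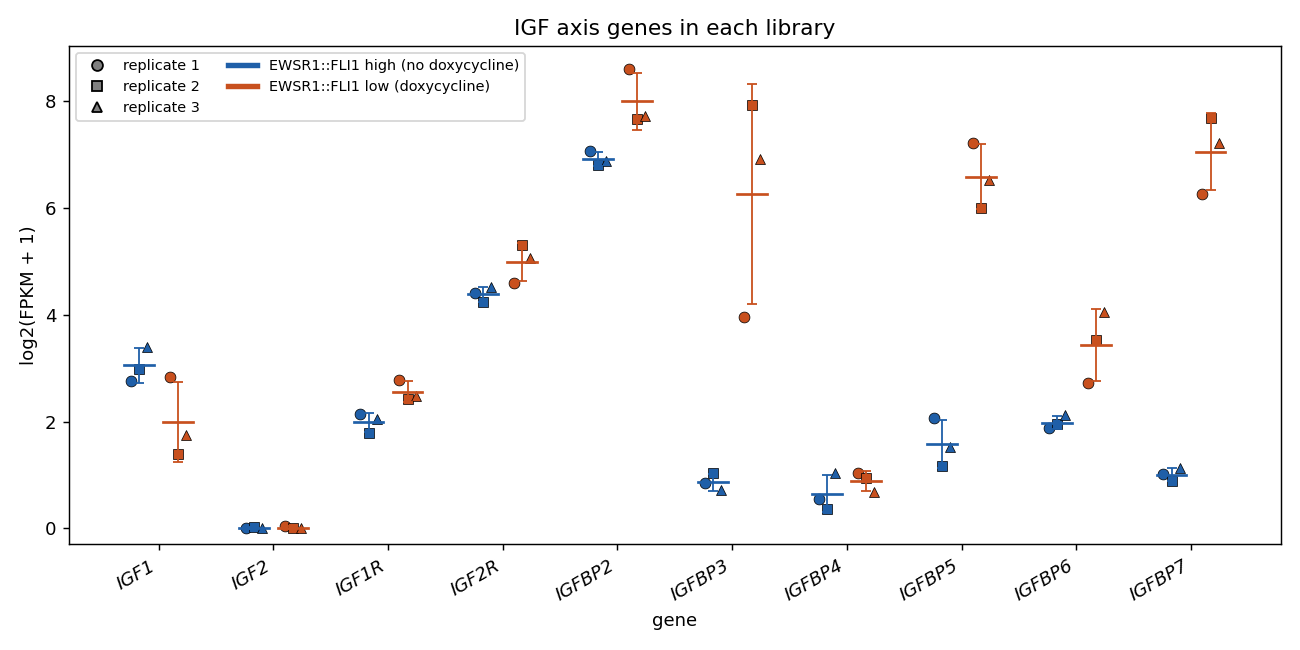
The plot of the members by library gives log2(FPKM + 1) on the vertical axis for each of the 10 genes on the horizontal axis, with blue symbols for EWSR1::FLI1 high and orange symbols for EWSR1::FLI1 low libraries, a symbol shape per replicate number, and bars for the mean and SD (n = 3). IGFBP3, IGFBP5 and IGFBP7 lie close to the foot of the plot without doxycycline and among the highest values with it, IGF2 lies at or very close to 0 in both groups, and IGFBP3 has the widest spread among doxycycline libraries.

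The ligands were first compared. IGF2 (ENSG00000167244, chromosome 11, 2150342 to 2179621, minus strand, GRCh37), the fetal growth factor of the family, was practically undetected in these cells. A total of 3 reads lay on the gene in the 6 libraries together, 1 in untreated replicate 2 and 2 in doxycycline replicate 1. The other 4 libraries had 0 reads, and 3 reads would have given from 0.03 to 0.0603 FPKM. A level above that range would thus have been detected if reads shared with overlapping transcripts were counted. IGF2 did not reach the filter and was not tested. Its overlapping transcript INS-IGF2 was listed at 0 in every library, and so was INS. How reads shared by IGF2 and INS-IGF2 were counted is not given in the sources used here. H19, the imprinted noncoding neighbor, had at most 0.141 FPKM.

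IGF1 (ENSG00000017427, chromosome 12, 102789652 to 102875522, minus strand), the ligand made by many mesenchymal cells, was thus the ligand detected in A673/TR/shEF cells. Its level was 5.78, 6.94 and 9.55 FPKM in untreated replicates 1, 2 and 3. In doxycycline replicates 1, 2 and 3 it was 6.09, 1.64 and 2.37 FPKM. Replicates 2 and 3 were below every untreated library, but replicate 1 lay among them, so the groups overlapped. The log2 fold change was -1.06 ± 0.35 (SE; 95% interval -1.84 to -0.27) and did not pass the limit (adjusted p = 0.0624, limma). Without doxycycline replicate 1 it was -1.47 (adjusted p = 0.00309, limma). IGF1 was not called upon leaving out any other library (adjusted p at most 0.206, limma).

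Both receptors were expressed in all libraries. IGF1R (ENSG00000140443, chromosome 15, 99191768 to 99507759, plus strand), which encodes the signaling receptor, was at 3.40, 2.46 and 3.11 FPKM in untreated replicates 1, 2 and 3 and at 5.86, 4.35 and 4.56 FPKM in doxycycline replicates 1, 2 and 3. All the doxycycline libraries were above all the untreated ones, at 1.65 times their mean. The log2 fold change of 0.57 ± 0.18 (SE; 95% interval 0.17 to 0.97) did not reach the limit (adjusted p = 0.0524, limma), nor did it in any of the 15 alternatives tried. IGF2R (ENSG00000197081, chromosome 6, 160390114 to 160534539, plus strand), the mannose 6-phosphate receptor that takes up IGF2 and sorts lysosomal enzymes, was more abundant, at 20.2, 17.8 and 21.8 FPKM without doxycycline. Upon knockdown IGF2R was at 23.2, 38.5 and 32.2 FPKM in replicates 1, 2 and 3. The groups did not overlap, although replicate 1 was only slightly above the highest untreated library. Its log2 fold change was 0.60 ± 0.22 (SE; 95% interval 0.10 to 1.10; adjusted p = 0.0867, limma) and 0.80 without doxycycline replicate 1 (adjusted p = 0.0075). Upon leaving out any other library, IGF2R was not called (adjusted p at most 0.270, limma). For both receptors and for IGF1, an adjusted p above the limit does not show that the groups were alike.

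The receptor for insulin, INSR, which can pair with IGF1R into hybrid receptors, was at 4.62, 4.22 and 5.13 FPKM in untreated replicates and at 3.89, 4.56 and 3.36 FPKM in doxycycline replicates, with overlapping groups. Per library, IGF1R was at 0.735, 0.583 and 0.607 times the FPKM of INSR without doxycycline and at 1.51, 0.954 and 1.35 times with it. The balance between these transcripts was therefore below 1 in all untreated libraries and close to or above 1 in all treated libraries. The FPKM of IGF1 per FPKM of IGF1R was 1.70, 2.82 and 3.07 in untreated replicates 1, 2 and 3. It was 1.04, 0.376 and 0.521 in doxycycline replicates 1, 2 and 3, so that the ratio of ligand to receptor was lower in each treated library. These ratios were chosen after the values had been seen and were not tested.

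IGFBP7 (ENSG00000163453, chromosome 4, 57896939 to 57976551, minus strand), a secreted matrix-associated protein that binds IGFs only weakly, had the largest log2 fold change of the axis in the main comparison. It was at 1.01, 0.857 and 1.18 FPKM in untreated replicates 1, 2 and 3, where 14, 9 and 12 reads were counted. In doxycycline replicates 1, 2 and 3 it was at 75.7, 205 and 147 FPKM, or 886, 2210 and 3024 reads. The lowest treated library was thus far above the highest untreated one, and the ratio of the group means was 140.4. The log2 fold change was 6.04 ± 0.33 (SE; 95% interval 5.31 to 6.78; adjusted p = 2.59e-05, limma), which only 1 of the 15504 tested genes exceeded. The call was made in all of the 15 alternatives, with log2 fold changes from 5.73 to 6.97. IGFBP3 had a larger ratio of means (151), and a larger log2 fold change than IGFBP7 without doxycycline replicate 1 (6.55 against 6.44) and with sample quality weights (6.68 against 6.57). The 5′ end of IGFBP7 overlaps IGFBP7-AS1, an antisense RNA, by 624 bases. IGFBP7-AS1 had 2 reads in each untreated library and 5 to 12 reads in the treated ones (0.137 to 0.186 and 0.439 to 0.554 FPKM). Whether reads were counted by strand is not given in the sources used here.

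IGFBP3 (ENSG00000146674, chromosome 7, 45951844 to 45961473, minus strand), the main IGF carrier of blood, was at 0.797, 1.05 and 0.638 FPKM in untreated replicates 1, 2 and 3, with 13 to 22 reads. In doxycycline replicates 1, 2 and 3 its level was 14.5, 240.5 and 119.9 FPKM. All treated libraries were well above the untreated ones, but replicate 1 was at 0.0806 of the mean of the other two. The means were 0.828 ± 0.207 and 125 ± 113 FPKM (SD, n = 3 in each group), a ratio of 151. The log2 fold change was 5.40 ± 0.81 (SE; 95% interval 3.55 to 7.24; adjusted p = 0.00261, limma), the fourth largest increase of all tested genes. It was 6.55 without doxycycline replicate 1 (adjusted p = 2.55e-05) and 4.57 without doxycycline replicate 2 (adjusted p = 0.00238). The adjusted p exceeded 0.01 without untreated replicate 2, untreated replicate 3 or doxycycline replicate 3 (at most 0.0172, limma) and without a filter on low values (0.0647). The gene has a close neighbor, IGFBP1 (18584 bases away on the opposite strand), which encodes a liver-derived binding protein. IGFBP1 stayed near the detection limit, at no more than 0.273 FPKM in any library, and was not tested.

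IGFBP5 (ENSG00000115461, chromosome 2, 217536828 to 217560272, minus strand), a binding protein of bone and muscle that attaches to the extracellular matrix, was at 3.18, 1.25 and 1.86 FPKM in untreated replicates 1, 2 and 3. Upon doxycycline it was at 148, 63.1 and 90.5 FPKM in replicates 1, 2 and 3. Here replicate 1 was the highest of the treated libraries, the opposite of its place for IGFBP3 and IGFBP7. The ratio of the group means was 47.9 and the log2 fold change 4.99 ± 0.33 (SE; 95% interval 4.24 to 5.75; adjusted p = 6.27e-05, limma), position 10 among the increases of all tested genes. When 1 library at a time was left out, its log2 fold change stayed between 4.68 and 5.28 and the gene was called in all 6. Without a filter on low values the adjusted p was 0.0109.

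IGFBP2 (ENSG00000115457, chromosome 2, 217497551 to 217529159, plus strand) lies 7668 bases from IGFBP5, end to end on the opposite strand, and encodes a binding protein of fetal tissues and tumors. Unlike its neighbor it was already abundant without doxycycline, with 133, 111 and 116 FPKM in untreated replicates 1, 2 and 3. Its level was 387, 201 and 209 FPKM in doxycycline replicates 1, 2 and 3. The groups did not overlap and replicate 1 was again the highest, as for IGFBP5. The log2 fold change of 1.08 ± 0.26 (SE; 95% interval 0.49 to 1.66) missed the limit (adjusted p = 0.0202, limma). It passed with limma-voom on recovered reads (1.07, adjusted p = 0.00942) and without doxycycline replicate 1 (0.77, adjusted p = 0.00351). IGFBP2 was not called upon leaving out any other library (adjusted p at most 0.0923, limma).

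IGFBP6 (ENSG00000167779, chromosome 12, 53491220 to 53496129, plus strand), which prefers IGF2 over IGF1, was at 2.66, 2.86 and 3.34 FPKM in untreated replicates 1, 2 and 3. In the EWSR1::FLI1 low group the values were 5.59, 10.5 and 15.5 FPKM in replicates 1, 2 and 3, all above the untreated libraries. Between 22 and 234 reads were counted per library. The log2 fold change of 1.45 ± 0.30 (SE; 95% interval 0.77 to 2.13) was just outside the limit (adjusted p = 0.0116, limma), was within it in 7 of the 15 alternatives, and was 1.80 without doxycycline replicate 1 (adjusted p = 0.000711). Upon leaving out any other library, IGFBP6 stayed outside the limit (adjusted p at most 0.0534, limma). IGFBP4 (ENSG00000141753, chromosome 17, 38599702 to 38613977, plus strand), an inhibitory binding protein cleaved by PAPPA, was near the detection limit. Only 5 to 21 reads per library lay on it, which gave 0.469, 0.281 and 1.04 FPKM without and 1.06, 0.927 and 0.603 FPKM with doxycycline. The groups overlapped and no difference was detectable at this depth (log2 fold change 0.24, 95% interval -0.24 to 0.73; adjusted p = 0.467, limma).

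**Figure D2:**
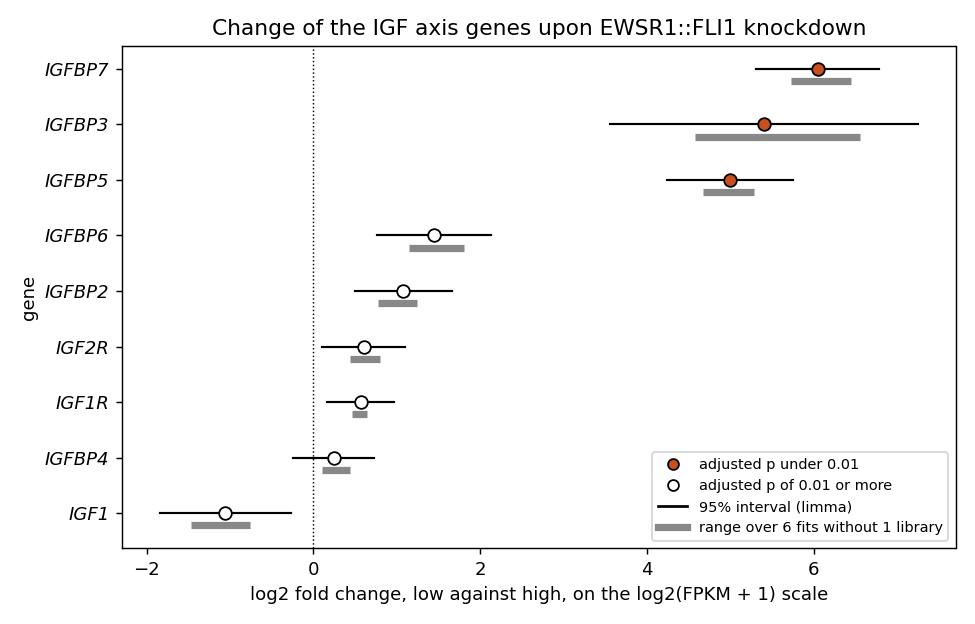
The plot of changes gives the log2 fold change of EWSR1::FLI1 low against EWSR1::FLI1 high on the log2(FPKM + 1) scale (horizontal axis) for the 9 tested genes (vertical axis), with 95% intervals from limma as thin lines, filled points for an adjusted p under 0.01, and grey bars for the range when 1 library at a time was left out. IGFBP7, IGFBP3 and IGFBP5 stand at 6.04, 5.40 and 4.99, and the next gene, IGFBP6, at 1.45.

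The make-up of the binding protein transcripts differed between the groups. FPKM is given per length of transcript, so the levels of different genes can be set side by side. Summed over IGFBP2 to IGFBP7, the level was 141, 117 and 124 FPKM in untreated replicates 1, 2 and 3 and 631, 720.0 and 583 FPKM in doxycycline replicates 1, 2 and 3. Without doxycycline, IGFBP2 made up 94.2%, 94.6% and 93.5% of this sum, and the other 5 genes together gave 8.12, 6.29 and 8.06 FPKM. With doxycycline, IGFBP2 made up 61.3%, 27.8% and 35.9% in replicates 1, 2 and 3, while the other 5 together gave 244, 519.5 and 374 FPKM. The share of IGFBP3 was 2.30%, 33.4% and 20.6% in these libraries, that of IGFBP5 was 23.4%, 8.76% and 15.5%, and that of IGFBP7 was 12.0%, 28.4% and 25.3%. IGFBP2 had the largest share in replicates 1 and 3 and IGFBP3 in replicate 2, and the shares of IGFBP3 and IGFBP7 were lowest in replicate 1, where those of IGFBP2 and IGFBP5 were highest. Without IGFBP7, which binds IGFs only weakly, the sum was 140, 116 and 123 FPKM in untreated replicates 1, 2 and 3. It was 555, 515 and 436 FPKM in doxycycline replicates 1, 2 and 3. These sums and shares are descriptions and were not tested.

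**Figure D3:**
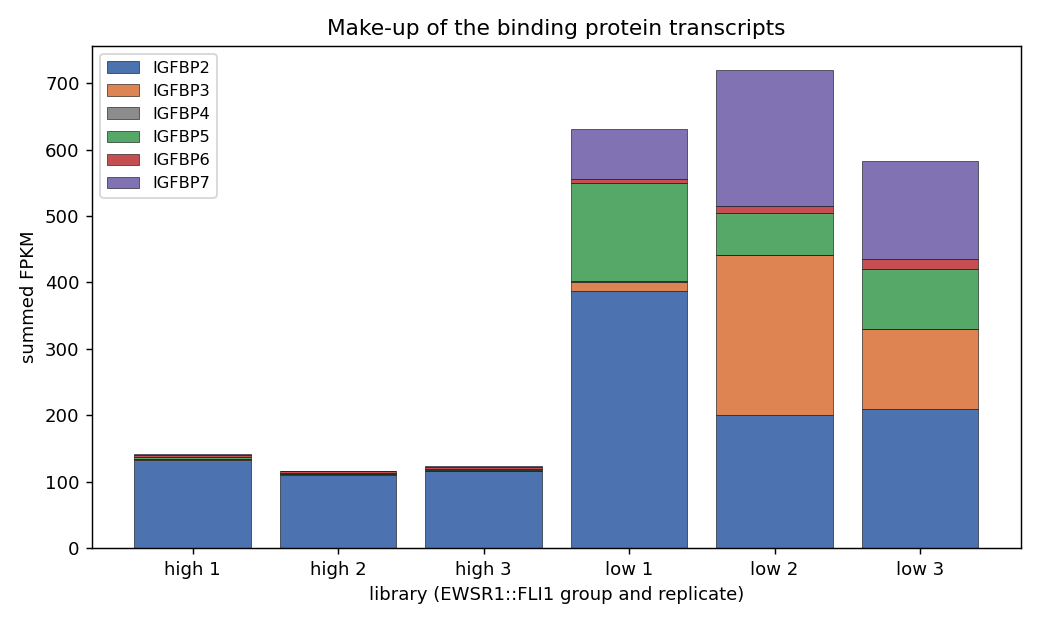
The plot of the binding protein transcripts stacks the FPKM of IGFBP2 to IGFBP7 (vertical axis, linear from 0) for each of the 6 libraries (horizontal axis). The 3 untreated bars reach 117 to 141 FPKM and are almost wholly IGFBP2, and the 3 doxycycline bars reach 583 to 720.0 FPKM with large parts from IGFBP3, IGFBP5 and IGFBP7.

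The order of the genes by level changed as well. By mean FPKM over all 26364 symbols, IGFBP7 was at position 12084 in EWSR1::FLI1 high and at position 299 in EWSR1::FLI1 low cells. IGFBP3 was at position 12649 and then 370, IGFBP5 at 10447 and then 545, and IGFBP2 at 509 and then 102. Within the treated group, the means of IGFBP2 (265 ± 105 FPKM), IGFBP7 (143 ± 64.6), IGFBP3 (125 ± 113) and IGFBP5 (100.4 ± 43.1; all SD, n = 3) stood in this order, but the ranges of neighbors in this order overlapped. In doxycycline replicate 1, IGFBP3 (14.5 FPKM) was below IGF2R (23.2 FPKM) and within the range of IGFBP6 over the treated libraries (5.59 to 15.5 FPKM). By mean, IGF2R (31.3 ± 7.68) and IGFBP6 (10.5 ± 4.98) came next. Below them were IGF1R (4.93 ± 0.819) and IGF1 (3.37 ± 2.39), whose ranges overlapped with each other and with that of IGFBP6, and IGFBP4 (0.862 ± 0.234) and IGF2 came last.

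For each called member, the tested genes with the most alike pattern were sought by the root mean square difference of their 6 log2(FPKM + 1) values, each centred on its own mean. For IGFBP7 these were LOX, a collagen crosslinking enzyme (0.39), and TNFSF18, a ligand of the tumor necrosis factor family (0.46). The nearest genes to IGFBP3 were SPP1, which encodes osteopontin (0.38), and ANKRD1, a nuclear ankyrin repeat protein (0.60). For IGFBP5 they were TGFBI, a matrix protein (0.53), and COL1A2, a collagen chain (0.53). SPP1 shared with IGFBP3 the low value in doxycycline replicate 1, at 8.06 FPKM against 114 and 103 FPKM in replicates 2 and 3. COL1A2 was instead highest in replicate 1 (50.2 FPKM, then 27.6 and 31.5), as was IGFBP5, whereas TGFBI differed little among these libraries (69.6, 63.3 and 70.6 FPKM). The points compared share the same 6 libraries, and the likeness is a description.

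Other genes of the pathway and genes sharing an IGFBP domain were then counted in 5 lists, 72 genes in all, of which 55 could be tested. Upon EWSR1::FLI1 knockdown 6 of the 55 were higher and 2 were lower with an adjusted p under 0.01, beside 4.51% and 3.37% of all tested genes, and their median log2 fold change was 0.12. The higher genes lay in the list of IGFBP-domain proteins (4) and in that of proteases with their inhibitors (2). None lay in the other lists. A shared domain does not by itself make a gene part of IGF signaling. The lists were chosen with earlier results of these data known, so these shares are descriptions. The count of higher genes was 3 without untreated replicate 2 or without doxycycline replicate 3, and 10 without doxycycline replicate 1. The count of lower genes was 0 without untreated replicate 2 or untreated replicate 3, and 1 without untreated replicate 1, doxycycline replicate 2 or doxycycline replicate 3. Without a filter on low values no gene of the lists was called.

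One list held 12 proteins with an IGFBP domain and IGFALS, the acid-labile subunit that joins the complex of IGF and IGFBP3 in blood and has no such domain. Of these 13 genes, 8 were tested (IGFALS was not) and 4 were higher, with a median log2 fold change of 2.44. CTGF and CYR61, matricellular proteins of the CCN family, were at 0.976, 1.71 and 3.53 FPKM and at 2.08, 2.63 and 3.72 FPKM in untreated replicates 1, 2 and 3. In doxycycline replicates 1, 2 and 3, CTGF was at 45.2, 106 and 48.2 FPKM (log2 fold change 4.43 ± 0.38, adjusted p = 0.000207, limma). CYR61 was at 27.7, 46.3 and 34.1 FPKM (3.27 ± 0.24, adjusted p = 9.51e-05, limma). HTRA1, a secreted serine protease with an IGFBP-like start, increased from 0.525 ± 0.134 to 36.2 ± 25.5 FPKM (SD, n = 3; log2 fold change 4.24, adjusted p = 0.00154, limma). Its value in doxycycline replicate 1, 8.22 FPKM, was the lowest of the treated libraries, as it was for IGFBP3. The call of HTRA1 was lost without untreated replicate 2, doxycycline replicate 3 or a filter on low values (adjusted p at most 0.0520 over all alternatives). CRIM1, a transmembrane regulator of growth factors, increased from 20.3 ± 3.92 to 64.6 ± 17.1 FPKM (log2 fold change 1.60, adjusted p = 0.0029, limma). CRIM1 was not called in 5 of the 15 alternatives (adjusted p at most 0.0419), among them the omission of any 1 untreated library or of doxycycline replicate 3.

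Among 8 proteases that cut binding proteins and inhibitors of those proteases, 7 were tested and 2 were higher. STC1, a secreted inhibitor of the protease PAPPA, was at 10.6, 10.5 and 13.8 FPKM in untreated replicates and at 66.5, 255 and 118 FPKM in doxycycline replicates 1, 2 and 3 (log2 fold change 3.34 ± 0.41, adjusted p = 0.000956, limma). PAPPA, which cuts IGFBP4 and IGFBP5, was at 24.5, 20.4 and 24.3 FPKM without doxycycline and at 18.3, 17.4 and 11.3 FPKM with it. Each treated library was below each untreated one, but the log2 fold change of -0.56 did not pass the limit (adjusted p = 0.11, limma). ADAM12, a metalloprotease that cuts IGFBP3 and IGFBP5, increased from 0.273 ± 0.0746 to 3.78 ± 2.10 FPKM (log2 fold change 1.79, adjusted p = 0.00744, limma). ADAM12 was not called in 7 of the 15 alternatives (adjusted p at most 0.0919), among them quantile normalization and the omission of any 1 library other than doxycycline replicate 1.

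The intracellular part of the pathway was covered by the next lists. Of 13 genes for the insulin receptor and receptor adaptors, 9 were tested and 1 was lower. This was IRS2, a docking protein for both receptors, at 11.5, 10.8 and 11.8 FPKM in untreated replicates and at 6.67, 4.58 and 4.59 FPKM in doxycycline replicates (log2 fold change -0.99 ± 0.18, adjusted p = 0.00698, limma). IRS2 was no longer called without a filter on low values, under quantile normalization or median-ratio scaling, or upon leaving out any 1 library other than doxycycline replicate 1 (adjusted p at most 0.0388 over all alternatives). Its relative IRS1 lay in the other direction, at 3.68 ± 0.60 FPKM without and 6.04 ± 1.15 FPKM with doxycycline (SD, n = 3), a log2 fold change of 0.59 that did not pass the limit (adjusted p = 0.0564, limma). Of 25 genes of PI3K, AKT, mTOR and FOXO, 24 were tested and limma called 0 of them. At an unadjusted p under 0.05, 5 of these were higher and 3 lower, and limma-voom on recovered reads called 2 higher. The median log2 fold change of this list was 0.04. In 8 of the 24 all doxycycline libraries exceeded all untreated ones, compared with 17.5% of all tested genes. In 4 they were all below them, compared with 23.6%. FOXO1 (log2 fold change 1.43, adjusted p = 0.0154, limma) and FOXO3 (0.78, adjusted p = 0.0121) were among the 8 and missed the limit. Over all tested genes, 7.88% were called in either direction.

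In the list of 13 regulators of IGF genes and the growth hormone axis, 7 were tested and 1, LIN28B, was lower. HMGA2 was at 41.7 ± 2.66 FPKM without and 106 ± 34.8 FPKM with doxycycline (SD, n = 3), without overlap. It just missed the limit (log2 fold change 1.27, adjusted p = 0.0103, limma). LIN28B, an RNA-binding protein that blocks let-7 maturation, decreased from 41.2 ± 4.89 to 12.6 ± 3.45 FPKM (SD, n = 3). Its log2 fold change was -1.66 (adjusted p = 0.00173, limma). This call was lost without untreated replicate 2, untreated replicate 3 or a filter on low values (adjusted p at most 0.0307 over all alternatives). Of the IGF2 mRNA-binding proteins, none was called. IGF2BP1 was at 33.6, 27.6 and 37.1 FPKM in untreated replicates and at 17.5, 14.2 and 17.6 FPKM in doxycycline replicates, without overlap, and just missed the limit (log2 fold change -0.95 ± 0.19, adjusted p = 0.0105, limma). IGF2BP2 and IGF2BP3 had log2 fold changes of 0.20 and 0.04, with 95% intervals from -0.24 to 0.65 and from -0.52 to 0.60, and their groups overlapped. Differences between these genes were not tested.

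**Figure D4:**
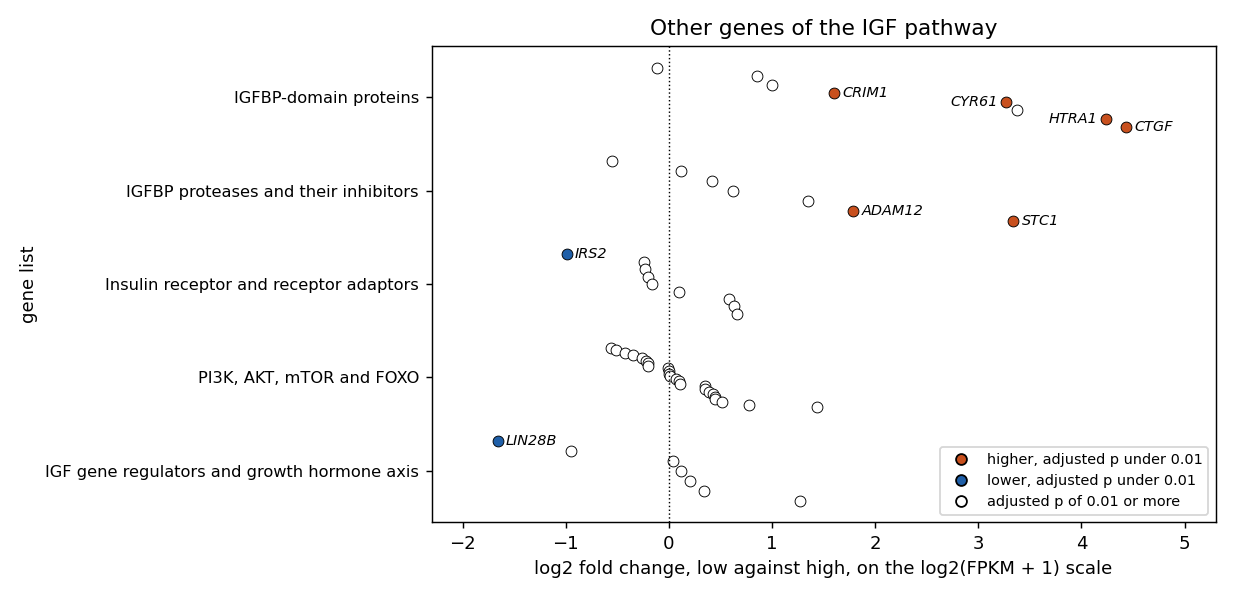
The plot of the pathway lists gives the log2 fold change on the log2(FPKM + 1) scale (horizontal axis) of the 55 tested genes in 5 lists (vertical axis), 1 point per gene, spread vertically for visibility. Orange points are the 6 genes higher and blue points the 2 genes lower with an adjusted p under 0.01, and the orange points lie in the lists of IGFBP-domain proteins and of IGFBP proteases with their inhibitors.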

How the data were processed

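The 6 RNAseq libraries were grouped and numbered by their labels. The authors aligned paired-end reads to GRCh37 with STAR 2.5.0b and named Cufflinks 2.2.1 for abundance. The authors deposited 1 FPKM value per symbol and library. The authors' deposited comparison, made with DESeq2, holds a mean signal per gene (mean normalized count), log2 fold changes with standard errors, a Wald score and p-values. Only the mean signal was used, to recover reads: after scaling, 100% of the values above 0 were whole reads within 0.1 reads. Counting floors (3 reads) cover counting error only.

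Symbols averaging 0.5 FPKM or more over the libraries entered limma 3.58.1 (R 4.3.3, eBayes with trend) on log2(FPKM + 1), which understates changes at low FPKM. No block for the replicate number was fitted. The steps were checked on simulated data. The members, lists and the rule for named genes were chosen with earlier results of these data known. By that rule the members, FLI1, EWSR1 and list genes called with an absolute log2 fold change of at least 1 were named. It also covered a few fixed list genes and the 2 nearest genes of each called member. PDGFRA, PDGFRB, COL1A1, DCN, LUM, THY1 and PECAM1 are markers. H19, INS, INS-IGF2, IGFALS, IGFBP7-AS1, HMGA2, FOXO1 and FOXO3 were named after their values were seen. IRS2, at a log2 fold change of -0.99, is among the fixed list genes. Gene positions were read from GENCODE v44 in its GRCh37 version, and promoter sequences are from RefSeq. The alternatives tried are given in the closing section.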

Additional observations from a re-analysis of the deposited data

How the results depend on the processing

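The direction of each of the 9 tested members was kept in all alternatives. Of 134 values for single members under alternatives, 113 stayed on their side of the limit, 16 moved inside it and 5 moved outside it, and IGFBP4 could not be tested with a mean FPKM of at least 1. Members called higher numbered 3, and 1 without a filter on low values, 5 with quantile normalization and 6 with sample quality weights. Members called lower numbered 0, and 1 with sample quality weights. Over all genes, 700 were called higher and 522 lower. These counts were 89 and 35 without a filter and 2488 and 2257 with sample quality weights, and the count of lower genes was 813 with median-ratio scaling, 1000 with quantile normalization and 784 with limma-voom. Of the pathway lists, 6 genes were called higher and 2 lower. No gene of the lists (0 and 0) was called without a filter, 19 and 4 were with sample quality weights, 10 were higher with median-ratio scaling and 1 was lower with quantile normalization. Leaving out 1 library at a time gave 2 to 6 members higher and 0 to 1 lower, 287 to 1452 genes higher and 156 to 726 lower, and 3 to 10 list genes higher and 0 to 3 lower. The cause of these shifts was not tested. Without a filter 26364 genes were tested in place of 15504, and the standard errors of members also changed. That of IGFBP3 was 1.07 in place of 0.81, and that of IGF1R was 0.16 in place of 0.18.

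The replicate numbers are shared by the groups. After subtraction of the group mean, libraries of the same number had r = 0.271, 0.089 and 0.124 across genes for replicates 1, 2 and 3. Libraries of different number had r = -0.289, -0.052, -0.008, -0.089, -0.242 and 0.189. Whether the libraries were paired was not tested, and the main fit had no block. With the replicate number as a block, 5 members were called higher, IGFBP2 (adjusted p = 0.00579, limma) and IGFBP6 (0.00325) in addition, and 786 genes were called lower. untreated replicate 3 correlated better with doxycycline replicate 2 (r = 0.189) than with its own number.

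Depth limits IGFBP4, IGF2 and IGFBP1, and 9 to 22 reads stand behind the values of IGFBP3 and IGFBP7 in each untreated library.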
